A study of Mus musculus with 4 samples.

Results

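The 8 genes that encode the subunits of condensin I and condensin II were examined by RNA sequencing in mouse embryonic fibroblasts (MEF cells) that were wt or null for DNA topoisomerase 2β (Top2β). The genes were taken by name: Smc2 and Smc4, which both complexes share, Ncapd2, Ncapg and Ncaph of condensin I, and Ncapd3, Ncapg2 and Ncaph2 of condensin II. All 8 were found among the 54842 gene rows of the deposited table, and all 8 had enough counts to be tested. There were 2 libraries of wt and 2 of Top2β-null cells, all from untreated cells, made from total RNA after removal of ribosomal RNA. The study was concerned with the transcription of major satellite repeats. By the study's methods, the Top2β-null cells were a gift from other laboratories, and nothing there says that the wt cells share their origin. The origin of the cells and the loss of Top2β therefore cannot be told apart in any comparison given here. No source used here says whether the libraries of a genotype came from separate cultures or embryos, so the p-values measure only the spread between libraries, which may be technical.

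Condensins are ring-shaped motors that extrude loops of DNA and fold chromosomes before cell division. The arms of the ring are the ATPases Smc2 and Smc4, a kleisin (Ncaph or Ncaph2) closes it, and a pair of HEAT-repeat proteins (Ncapd2 and Ncapg, or Ncapd3 and Ncapg2) bind DNA and regulate the motor. Condensin II resides in the nucleus through the cell cycle, whereas condensin I gains access to chromosomes once the nuclear envelope breaks down. Type 2 topoisomerases work beside condensin, since they pass DNA strands through each other while loops are compacted. In dividing fibroblasts, transcripts of many condensin genes are at their highest late in the cell cycle.

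Total counts lay between 133116830 and 149647278 a library. Top2b, the targeted gene, stood at 18259 and 18465 normalized counts in wt and at 3879 and 3789 in Top2β-null cells, or 20.9% of the wt mean. All 8 fibroblast markers were detected, and 3 were higher and 4 lower in Top2β-null cells at an adjusted p below 0.05 (edgeR), from Col1a1 (log2 fold change -1.38) to Thy1 (2.07). Of the 4 leukocyte markers none had enough counts to be tested, and Tyrobp was at 0 in all 4 libraries. The summed level of the 4 epithelial markers was 25.1 to 26.2 normalized counts in wt and 13.5 to 14.9 in Top2β-null cells, and that of the 4 endothelial markers was 92.9 to 93.7 and 48.7 to 53.5. The part of these markers in the differences below was not tested.

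The subunit genes lie on different chromosomes of GRCm38 (the assembly also called mm10). Smc2 spans chr4:52439243-52488260, Smc4 chr3:69004738-69034623 and Ncapd2 chr6:125168007-125191701. Ncapg spans chr5:45669919-45700546, Ncaph chr2:127103809-127133954 and Ncapd3 chr9:27030175-27095315. Ncapg2 spans chr12:116405402-116463731 and Ncaph2 chr15:89355719-89372826. Ncapd2 and Ncaph are on the reverse strand and the 6 others on the forward strand. None of the 8 genes has a pseudogene that GENCODE M21 names after it. Exons of 3 members overlap those of another gene. In Ncapd2, 237 exonic bases (3.78% of its exons) are shared with Scarna10, a small Cajal body RNA on the same strand. Exons at the 3′ end of Ncapg overlap Lcorl on the opposite strand over 944 bases (13.4%), and those of Ncaph2 overlap Sco2 over 829 bases (19.7%) and Tymp over 535 bases (12.7%), both also on the opposite strand.

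Promoter sequences are shown because cell cycle genes often carry CHR elements, the binding site of the DREAM repressor and of MYB and FOXM1 complexes. RefSeq windows on GRCm38.p6, from 250 bases before to 50 after a start site, were at hand for 7 of the 8 genes, all but Smc4. Both strands were searched for the CHR letters TTTGAA and for their variant TTCGAA, which reads the same on either strand. The CCAAT box was searched by the letters of its name, and the E2F site by GCGGGAA or, alternatively, GCGCGAA. None of these motifs overlapped another in the windows of the members. TTTGAA was found in Smc2, Ncapd2, Ncapg and Ncapg2, and in 17.9% of all 32817 promoter windows of this length. TTCGAA was found in Ncaph2 and in 1.56% of all windows. CCAAT was found in Smc2, Ncapd2 and Ncapg and in 37.4% of all windows, and the E2F letters in Ncapg and Ncapg2 and in 6% of all windows. The windows at the start of Ncaph and Ncapd3 hold none of these letters. Ncapd3 has another RefSeq window inside the gene that begins at position 27060166 of chromosome 9, with TTTGAA at -249 to -244 on the strand opposite to that of the gene. The promoters of the members with the largest difference in each direction, Ncapd2 (chr6:125191537-125191836, reverse strand) and Ncaph2 (chr15:89355469-89355768, forward strand), are printed with those of Ncapg (chr5:45669675-45669974, forward strand) and its condensin II counterpart Ncapg2 (chr12:116405186-116405485, forward strand). Each is written 5′ to 3′, and capitals mark the searched letters on either strand.
Ncapd2: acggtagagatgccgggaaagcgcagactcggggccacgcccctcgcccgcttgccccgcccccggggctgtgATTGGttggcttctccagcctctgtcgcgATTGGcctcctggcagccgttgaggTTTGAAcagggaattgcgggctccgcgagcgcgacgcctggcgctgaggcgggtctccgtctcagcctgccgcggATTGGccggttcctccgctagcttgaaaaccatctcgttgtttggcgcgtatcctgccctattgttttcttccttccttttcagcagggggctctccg
Ncaph2: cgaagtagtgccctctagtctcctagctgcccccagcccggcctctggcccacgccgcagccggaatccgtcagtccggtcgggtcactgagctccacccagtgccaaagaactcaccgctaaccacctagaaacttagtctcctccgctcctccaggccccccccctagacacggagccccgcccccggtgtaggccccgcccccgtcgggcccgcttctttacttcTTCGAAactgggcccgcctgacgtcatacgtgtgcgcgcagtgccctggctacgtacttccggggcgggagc
Ncapg: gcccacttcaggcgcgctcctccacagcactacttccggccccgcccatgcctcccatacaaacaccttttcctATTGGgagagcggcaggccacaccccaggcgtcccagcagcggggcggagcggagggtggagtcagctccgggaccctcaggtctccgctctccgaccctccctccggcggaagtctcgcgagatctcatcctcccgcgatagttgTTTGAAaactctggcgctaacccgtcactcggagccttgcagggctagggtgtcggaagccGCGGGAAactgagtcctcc
Ncapg2: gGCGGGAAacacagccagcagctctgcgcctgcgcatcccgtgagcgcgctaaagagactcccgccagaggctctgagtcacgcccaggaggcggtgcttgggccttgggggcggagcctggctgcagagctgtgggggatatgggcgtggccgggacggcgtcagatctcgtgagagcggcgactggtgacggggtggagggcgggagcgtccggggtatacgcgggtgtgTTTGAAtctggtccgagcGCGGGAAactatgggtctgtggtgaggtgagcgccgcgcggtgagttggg
In Ncapg and Ncapg2 the TTTGAA lies just upstream of the start site, at -30 to -25 and at -18 to -13, and in Ncaph2 the TTCGAA lies at -22 to -17. In Ncapd2 the TTTGAA is farther away, at -123 to -118, and the CCAAT letters occur 3 times, each on the strand opposite to the one printed.

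Both directions of change occurred among the condensin genes. In Top2β-null cells Smc4, Ncapd2 and Ncapd3 were higher than in wt cells, Ncapg, Ncaph, Ncapg2 and Ncaph2 were lower, and Smc2 did not pass the test. The differences ran from a log2 fold change of -0.64 for Ncaph2 to 0.44 for Ncapd2, so that no member was doubled or reduced to under 50% of wt. Thus 3 members were higher and 4 were lower at an adjusted p below 0.05 (quasi-likelihood test of edgeR, Benjamini-Hochberg adjusted over 26566 genes and repeat families). Of all features tested, 32.5% passed in the higher and 32.5% in the lower direction, 65.0% together, and among the 5106 features with a mean of at least 5000 normalized counts, as all members have, 82.8% passed. Passing this test is therefore common at such levels, and 7 of 8 members is near that share. The cut-offs of the study's methods also ask for a mean above 100 normalized counts and a log2 fold change beyond 1 in either direction. By these, 0 members were called with edgeR and 0 with DESeq2, against 10.2% of all features with edgeR. The share among the 5106 abundant features is not given here, and their median absolute log2 fold change was smaller, as printed below. At an unadjusted p below 0.05 all 8 members passed with edgeR, as did 67.5% of all features and 84.3% of those with a mean of at least 5000 normalized counts. The median log2 fold change over the 8 members was -0.11, against 0.0027 over all features tested and -0.014 over the 5106 abundant features. The members' median was -0.062 without Top2β-null replicate 1 and -0.035 with scaling to the total count. That scaling also raised the median over all features, to 0.072. The median absolute value was 0.21, against 0.39 over all features and 0.25 over the abundant ones.

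**Figure D1:**
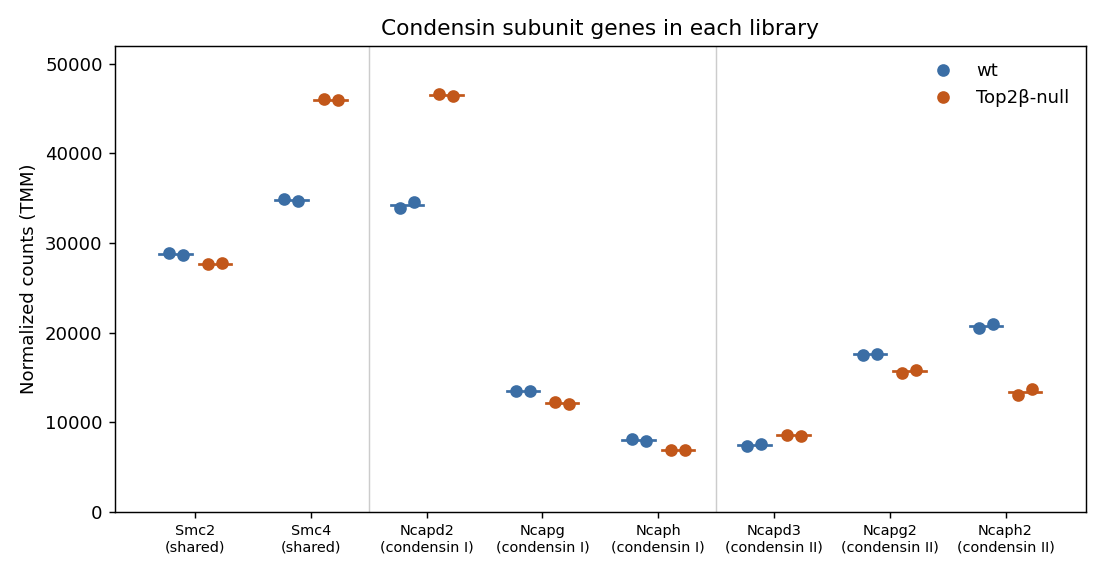
Normalized counts (y axis, linear from 0, edgeR TMM scaling) of the 8 condensin subunit genes (x axis) in each library. Points are single libraries (2 wt in blue, 2 Top2β-null in orange) and bars are group means. Replicates lie close together in every gene, and the widest gaps between genotypes are in Smc4, Ncapd2 and Ncaph2.

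Smc2 and Smc4, the ATPase pair, did not move together. Smc2 had 28884 and 28659 normalized counts in wt and 27618 and 27722 in Top2β-null cells. The groups did not overlap but lay close, at 96.2% of the wt level (log2 fold change -0.056, standard error 0.0244, edgeR adjusted p = 0.0542), and with scaling to the total count the sign turned (0.013). Without Top2β-null replicate 1 the log2 fold change was -0.014 (edgeR adjusted p = 0.67, with the spread taken from the wt pair alone). Smc4 had 34901 and 34669 normalized counts in wt and 46032 and 45946 in Top2β-null cells. Both Top2β-null libraries thus lay far above both wt libraries, at 132% of the wt level (log2 fold change 0.40, standard error 0.0250, edgeR adjusted p = 5.4e-10).

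An intron of Smc4 holds 2 microRNA genes on the same strand, Mir15b and Mir16-2. Their guide strands are shown because both carry the same seed (bases 2 to 8, in capitals; RefSeq, GRCm38.p6), which pairs with target mRNAs.
mmu-miR-15b-5p: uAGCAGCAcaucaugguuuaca
mmu-miR-16-5p: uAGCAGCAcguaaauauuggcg
They lie at chr3:69009775-69009796 and chr3:69009918-69009939, and miR-16-5p is also made from Mir16-1, on another chromosome. Mir15b had 9 and 7 raw counts in wt and 19 and 30 in Top2β-null libraries, and Mir16-2 had 25 and 23 against 53 and 56. Both rows were higher in Top2β-null cells, in the direction of their host (log2 fold changes 1.63 and 1.22, standard errors 0.437 and 0.279, edgeR adjusted p = 0.0038 and 0.0012). These are few counts, total RNA libraries do not measure mature microRNAs, and reads of unspliced Smc4 RNA cannot be told apart from those of the hairpins.

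Among the condensin I subunits, the HEAT-repeat subunit Ncapd2 was higher, while the other HEAT-repeat subunit Ncapg and the kleisin Ncaph were lower. Ncapd2 had 33921 and 34599 normalized counts in wt and 46688 and 46389 in Top2β-null cells, so that every Top2β-null library lay above every wt library. It stood at 136% of the wt level (log2 fold change 0.44, standard error 0.0255, edgeR adjusted p = 2.2e-10). Scarna10 itself was higher in Top2β-null cells, with 4891 and 5098 against 2743 and 2859 normalized counts. Its counts differed from those of Gm28967, a gene model annotated on nearly the same bases, by at most 3 in any library. Whether a read that falls on several gene models was counted for each or divided among them was not tested. With all Scarna10 counts subtracted from Ncapd2, 8.09% to 11% of its counts, the log2 fold change was 0.40.

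Ncapg had 13504 and 13497 normalized counts in wt and 12240 and 12032 in Top2β-null cells, without overlap and at 89.9% of the wt level (log2 fold change -0.15, standard error 0.0246, edgeR adjusted p = 4.3e-05). Lcorl had 5758 and 5880 against 6425 and 6097 normalized counts. Subtracting all Lcorl counts, which equal 42.6% to 52.5% of those of Ncapg, gave a log2 fold change of -0.39, farther from 0, and how many of them lie on the shared bases was not tested. With scaling to the total count, Ncapg was nearer to 0, at -0.084 (edgeR adjusted p = 0.0080). Ncaph had 8143 and 7925 normalized counts in wt and 6882 and 6845 in Top2β-null cells. It was lower in both Top2β-null libraries, at 85.4% of the wt level (log2 fold change -0.23, standard error 0.0267, edgeR adjusted p = 1.5e-06).

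Among the condensin II subunits, the HEAT-repeat subunit Ncapd3 was higher, the other HEAT-repeat subunit Ncapg2 was lower, and the kleisin Ncaph2 had the largest difference of the 8 members in either direction. Ncapd3 had 7382 and 7533 normalized counts in wt and 8578 and 8475 in Top2β-null cells, at 114% of the wt level without overlap (log2 fold change 0.19, standard error 0.0259, edgeR adjusted p = 6.7e-06). Ncapg2 had 17474 and 17647 normalized counts in wt and 15516 and 15846 in Top2β-null cells, at 89.3% of the wt level and again without overlap (log2 fold change -0.16, standard error 0.0247, edgeR adjusted p = 2.4e-05). With scaling to the total count it was -0.093 (edgeR adjusted p = 0.0045).

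Ncaph2 had 20531 and 20957 normalized counts in wt and 13008 and 13664 in Top2β-null cells. Every Top2β-null library lay below every wt library, at 64.3% of the wt level (log2 fold change -0.64, standard error 0.0278, edgeR adjusted p = 5.8e-12). Sco2, a copper chaperone of cytochrome oxidase, and Tymp, thymidine phosphorylase, end in the same interval, and both were lower in Top2β-null cells (log2 fold changes -0.86 and -0.79). Their counts together equal 16.7% to 19.5% of those of Ncaph2, and with all of them subtracted Ncaph2 had a log2 fold change of -0.60. Exons of Sco2 and Tymp also overlap each other on the same strand, and their counts were close in every library. Whether the same reads were counted for both, and so subtracted more than once, was not tested. Their lower values may therefore not be separate observations.

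**Figure D2:**
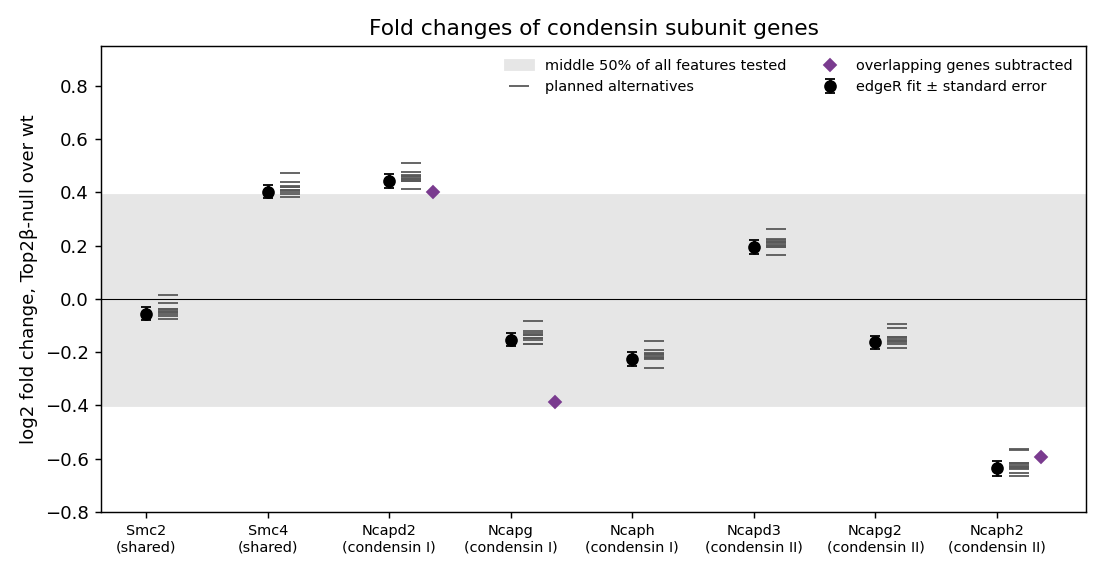
Log2 fold change of Top2β-null over wt (y axis) for each condensin subunit gene (x axis). Black points are the edgeR fit with its standard error, and short bars are fits under other settings, DESeq2 among them, or with a library left out. Purple diamonds are the edgeR fit after the counts of overlapping genes were subtracted. The grey band is the middle 50% of all 26566 features. Ncaph2, Ncapd2 and Smc4 lie outside the band in the edgeR fit, and Smc2 lies near 0.

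In all 8 genes the groups did not overlap, as in 80.5% of all features tested. The replicates of a gene differed by at most 0.071 on the log2 scale, the widest gap being that of Ncaph2 in Top2β-null cells. The differences of 7 members were larger than this gap and that of Smc2 (0.056) was not. The replicates of Smc2 itself differed less, by 0.0113 in wt and 0.0054 in Top2β-null cells. In bulk RNA, fewer cells in the stages that express a gene and less RNA in each cell cannot be told apart.

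To compare levels between genes, normalized counts were divided by the length of all exons of a gene in GENCODE M21. In wt MEF cells Smc4 was highest, at 6677 ± 31.5 normalized counts per kb (SD, n = 2), followed by Ncapd2 at 5467 ± 76.5, Smc2 at 5252 ± 29.1 and Ncaph2 at 4941 ± 71.7. The other 4 lay well below, with Ncapg at 1911 ± 0.703, Ncaph at 1865 ± 35.8, Ncapg2 at 1767 ± 12.3 and Ncapd3 at 945 ± 13.5. In Top2β-null MEF cells the order per kb of exon was the same. Smc4 had 8827 ± 11.6 and Ncapd2 7426 ± 33.8 normalized counts per kb, Smc2 had 5051 ± 13.4 and Ncaph2 3177 ± 110. Ncaph (1594 ± 6.11) and Ncapg2 (1578 ± 23.4) overlapped there and were not separated beyond their spread, and Ncapg (1717 ± 20.8) and Ncapd3 (1081 ± 9.27) stood on either side. Averaged over all 4 libraries, levels per kb of exon lay between the 67.7 percentile for Ncapd3 and the 96.6 percentile for Smc4 among protein-coding genes tested. The order depends on the length used: per kb of coding sequence, Ncaph2 came first in wt cells (11373 normalized counts per kb) and Ncapd3 last (1651). In Top2β-null cells Ncaph2 (7311) then lay below Smc4 (11905), Ncapd2 (11144) and Smc2 (7744), and Ncapd3 was again last (1887). The order also depends on the overlapping genes. With the counts of Lcorl subtracted, Ncapg had 1087 ± 12.9 normalized counts per kb of exon in wt and 831 ± 12.04 in Top2β-null cells, below Ncaph and Ncapg2 in both and below Ncapd3 in the latter. With those of Scarna10 subtracted, Ncapd2 had 5020 ± 63.4 in wt cells, below Smc2.

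Ratios between subunits within a library need no scaling between libraries, and the difference of a ratio of 2 genes between genotypes does not depend on gene length. The log2 ratio of Smc4 to Smc2 per kb was 0.345 and 0.347 in wt and 0.809 and 0.801 in Top2β-null libraries. Smc4 thus exceeded Smc2 by 1.27-fold in wt and by 1.75-fold in Top2β-null cells, a difference of 0.46 on the log2 scale against a pooled replicate SD of 0.0041. The ratio of the HEAT-repeat subunits Ncapd2 and Ncapd3 went from 2.53 in both wt libraries to 2.78 in both Top2β-null libraries, a difference of 0.25 (pooled SD 0.0041). The ratio of Ncapg to Ncapg2 was 0.12 and 0.11 in wt and 0.15 and 0.095 in Top2β-null cells, and these values overlap, with a difference of 0.0096 against a pooled SD of 0.0285. This ratio depends on the overlap with Lcorl: with all Lcorl counts subtracted from Ncapg, it was -0.68 and -0.72 in wt and -0.924 and -0.925 in Top2β-null cells, without overlap and with a difference of -0.22 (pooled SD 0.0192). The kleisin ratio, Ncaph to Ncaph2, was -1.37 and -1.44 in wt and -0.96 and -1.03 in Top2β-null cells, a difference of 0.41 (pooled SD 0.0523).

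Summed over the non-SMC subunits, the log2 ratio of condensin I to condensin II per kb was 0.28 and 0.26 in wt and 0.91 and 0.85 in Top2β-null libraries. By this length condensin I transcripts were 1.21-fold those of condensin II in wt and 1.84-fold in Top2β-null cells, a difference of 0.61 on the log2 scale (pooled SD 0.0289). This sum is weighted to the most abundant subunit of each complex. Ncapd2 made up 58.7% to 59.5% of the condensin I sum in wt and 69.1% to 69.2% in Top2β-null cells, and Ncaph2 made up 64.5% to 64.6% and 53.9% to 55.0% of the condensin II sum. With the counts of the overlapping genes subtracted, those of Sco2 and Tymp perhaps more than once for a read, the difference was 0.52. With raw counts it was also 0.52. Per kb of coding sequence it was 0.56, but the ratio in wt cells then lay below 1, at 0.897-fold, and that in Top2β-null cells at 1.32-fold, so which complex is the more abundant in wt cells turns with the length used. For 4 of the 5 ratios, all but Ncapg to Ncapg2, a two-sided exact permutation test gave p = 0.33, the smallest that 2 libraries against 2 allow, and 0.42 after Benjamini-Hochberg adjustment over the 5 ratios. For Ncapg to Ncapg2 the same exact test gave p = 1, and with the Lcorl counts subtracted p = 0.33.

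**Figure D3:**
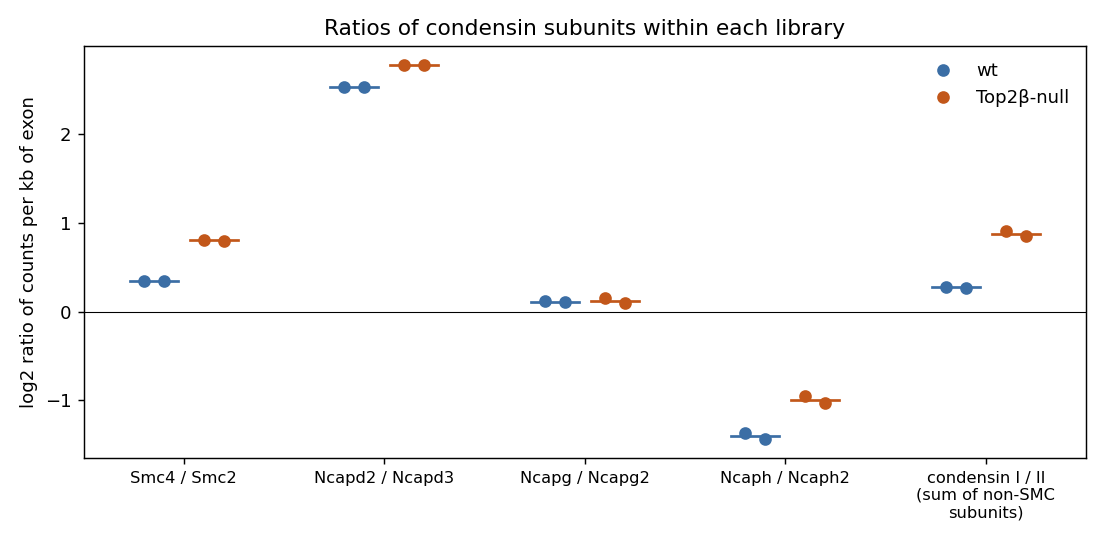
Log2 ratio of counts per kb of exon (y axis) between condensin subunits within each library, for 4 pairs of subunits and for the summed non-SMC subunits of condensin I over condensin II (x axis). Points are single libraries (2 wt in blue, 2 Top2β-null in orange) and bars are group means. All ratios but Ncapg to Ncapg2 lie higher in both Top2β-null libraries than in both wt libraries.

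Of 18 partners and regulators of condensin, all were tested, and 9 were higher and 8 lower in Top2β-null cells at an adjusted p below 0.05 (edgeR). Their median log2 fold change was 0.016. Of the kinases, Aurkb, the kinase of the chromosomal passenger complex, which helps to load condensin I, had the largest rise of the list, from 5476 and 5574 to 9663 and 9684 normalized counts (log2 fold change 0.81, edgeR adjusted p = 1.3e-13). Its partners did not follow as a group: Incenp was higher (0.39), whereas Birc5 (-0.37) and Cdca8 (-0.19) were lower. Cdk1, which phosphorylates condensin in mitosis, was lower (log2 fold change -0.25, edgeR adjusted p = 2.2e-07), while its cyclin Ccnb1 did not pass (-0.038, edgeR adjusted p = 0.19) and the other cyclin B, Ccnb2, was higher (0.39, edgeR adjusted p = 1.9e-08). Plk1, a mitotic kinase that acts on condensin II, was slightly higher (0.13, edgeR adjusted p = 2.0e-04).

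Mcph1, an inhibitor of condensin II, was higher in Top2β-null cells, with 10024 and 9580 against 7515 and 7512 normalized counts (log2 fold change 0.38, edgeR adjusted p = 4.0e-09). Kif4, a chromosome-bound motor that works with condensin I, and Top2a, the topoisomerase of mitotic chromosomes, differed little, with log2 fold changes of -0.075 and 0.070 (edgeR adjusted p = 0.0151 and 0.0307). Rb1, the retinoblastoma protein, had the largest difference of the list, from 2603 and 2650 down to 1155 and 1009 normalized counts (log2 fold change -1.28, edgeR adjusted p = 7.9e-12), and it is the 1 gene of the list past the cut-offs of the study's methods.

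The other SMC complexes were also mixed in direction. Of the 5 core genes of cohesin, the ring that holds sister chromatids, 2 were higher and 1 was lower, with log2 fold changes from -0.42 for the kleisin Rad21 to 0.24 for Smc3. Of the 6 genes of the SMC5/6 complex, which acts in DNA repair, 2 were higher and 3 lower, from -0.76 for the SUMO ligase Nsmce2 to 0.35 for Nsmce3. Nsmce2 had 5683 and 5834 normalized counts in wt and 3436 and 3364 in Top2β-null cells (edgeR adjusted p = 4.0e-12). The medians were 0.023 for cohesin and -0.038 for SMC5/6, beside -0.11 for the condensin genes. The condensin median moves with the scaling as given above, as does the median over all features. Those of cohesin and SMC5/6 were not taken under other scalings, and no difference between the complexes was tested.

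Markers of cell cycle stages moved beside the condensin genes, and their part in the differences was not tested. Of 12 G2/M markers, 6 were higher and 6 lower, with a median log2 fold change of 0.027. The lowest was Cdc20 (log2 fold change -0.47, edgeR adjusted p = 7.6e-11). Their summed level was 286020 and 293802 normalized counts in wt and 314687 and 311990 in Top2β-null cells. This sum is weighted to Mki67, with 76564 and 82448 normalized counts in wt and 88572 and 85687 in Top2β-null cells. Mki67, the proliferation marker, had a log2 fold change of 0.13 (edgeR adjusted p = 0.0028). Foxm1, a transcription factor for late cell cycle genes, was higher, with 29924 and 30200 against 18949 and 18632 normalized counts (log2 fold change 0.68, edgeR adjusted p = 5.8e-13). Of 8 S phase markers, 5 were higher and 2 lower, with a median of 0.099. They ran from Pcna at -0.33 (edgeR adjusted p = 7.1e-09) to the replicative helicase subunit Mcm7 at 0.53 (edgeR adjusted p = 1.4e-11). Their summed level was 209661 and 212676 normalized counts in wt and 224711 and 227847 in Top2β-null cells.

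**Figure D4:**
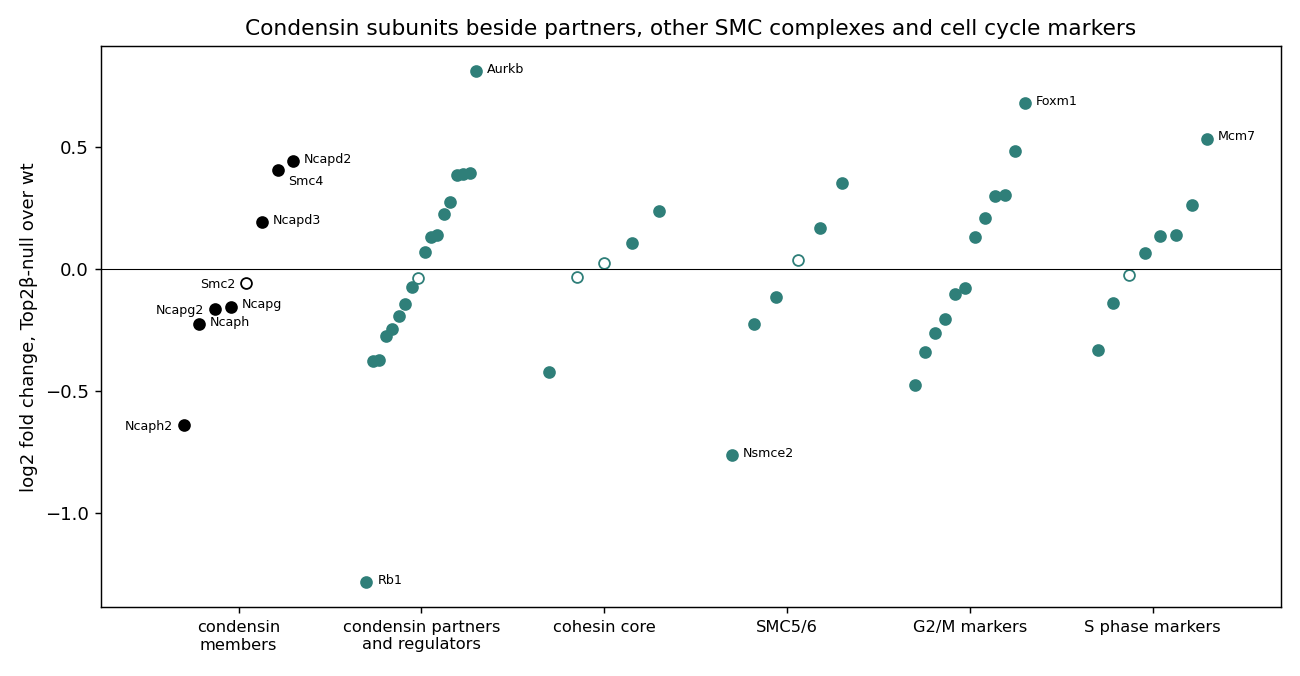
Log2 fold change of Top2β-null over wt (y axis) for the 8 condensin subunit genes (black) and, in green, 18 condensin partners and regulators, 5 cohesin core genes, 6 SMC5/6 genes, 12 G2/M markers and 8 S phase markers (x axis). Filled points passed an adjusted p of 0.05 with edgeR and open points did not. Members and genes beyond 0.5 in either direction are named, and every group holds genes on both sides of 0.

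The protein-coding genes whose pattern over the 4 libraries was most like that of a member were found by the root mean square difference of centred log2 normalized counts, among 12141 genes that are no member. The nearest were Atp5a1 and Rpl35a for Smc2, Bcorl1 and Rapgef2 for Smc4, and Commd1 and Wdfy3 for Ncapd2. For Ncapg they were Trio and Mms22l, for Ncaph Imp3 and Elp4, for Ncapd3 Pole and Arid4a, for Ncapg2 Kat7 and Txnrd1, and for Ncaph2 Cystm1 and Emd. The differences lay between 0.0023 for Pole and 0.0063 for Emd on the log2 scale. With 2 groups of 2 libraries such likeness is close to likeness in fold change, as for Pole (0.19, like Ncapd3) and Emd (-0.65 against -0.64 for Ncaph2).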

How the data were processed

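Total RNA libraries depleted of ribosomal RNA were sequenced, 2 from wt and 2 from Top2β-null MEF cells. The authors trimmed paired-end reads (Trim Galore! v0.4.0), aligned them to mm10 (STAR v2.5.2, keeping multi-mapping reads) and counted them over Gencode M9 genes and RepeatMasker families (TEtranscripts v1.5.1). The deposited values are raw counts. The counting mode and strand setting are not given in the sources used here, so reads from overlapping genes on opposite strands may not be separated.

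Groups came from the sample titles. Of 54842 gene identifiers, 54495 matched GENCODE M21 (GRCm38), which gave symbols, positions and lengths. Genes and repeat families that reached 10 counts in 2 or more libraries were fitted with edgeR 4.0.16 in R 4.3.3 (TMM over genes and repeats, quasi-likelihood test, genotype as the only term, Benjamini-Hochberg adjustment). Each standard error was taken as the size of the log2 fold change over the root of its F statistic. Normalized counts are counts brought to a common effective library size, the geometric mean of all 4. The spread between replicates exceeded sampling noise, with a chi-square of 3.65 (wt) and 5.07 (Top2β-null) for each degree of freedom, so no pair was treated as 1 library deposited again. This does not show that the libraries came from separate cultures. Fits were tested on simulated data, in which the smallest change was 0.5 on the log2 scale. The first criterion, on the recovery of every size of change, was met by edgeR but not by DESeq2, and was replaced after this was seen by one on large changes and unbiased estimates. Recovery of differences below 0.5 on the log2 scale, as those of 7 of the 8 members are, was not tested.

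The members and lists were chosen with earlier results of these data known. Named genes are the members, Top2b, regulators (Cdk1, Ccnb1, Aurkb, Plk1, Mcph1, Kif4, Top2a and Mki67; 1 more is not reported here), genes of the cell cycle, partner and SMC lists beyond 0.5 on the log2 scale, and 2 most alike genes per member (mean of at least 100 normalized counts). The overlapping genes, the other list genes and the background at 5000 normalized counts were chosen after their values were seen. Alternatives were DESeq2 1.42.0, TMM from genes only, total-count scaling, no filter, at least 100 counts in every library, the replicate block, gene rows only, other lengths and leaving out each library. Subtracting the counts of overlapping genes, and leaving out libraries for the ratios of 2 subunits, were alternatives added after the data were seen.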

Additional observations from a re-analysis of the deposited data

How the results depend on the processing

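Of 56 values of the members from planned fits that kept all libraries, 55 had the same sign and the same call, and 1 reversed, Smc2 with scaling to the total count (0.013). With a library left out, all 32 values had the same sign and call, but 1 genotype then has a single library, which is assumed to vary like the pair of the other, so these calls are no independent sign of stability. The counts of members higher (3) and lower (4) were the same in every fit. The median over the members was -0.11, and -0.035 when libraries were scaled to the total count, which raised the median of all features to 0.072. With each library left out it ranged from -0.12 to -0.062, the latter without Top2β-null replicate 1. The condensin I to condensin II difference moved from 0.61 to 0.52 with raw counts, to 0.56 per kb of coding sequence and to 0.52 with overlapping genes subtracted, and ranged from 0.58 to 0.64 with each library left out. With the replicate block, the median was -0.11 and no call on a member changed. Across 17952 features the deviations of libraries that share a number correlated at 0.0197, so the numbers do not show a pairing; features are not independent replicates. With overlapping genes subtracted, the difference in Ncapg to Ncapg2 reversed from 0.0096 to -0.22, and that in Ncapd2 to Ncapd3 went from 0.25 to 0.21. With each library left out, Ncapg to Ncapg2 ranged from -0.018 (without Top2β-null replicate 1) to 0.037. Depth limits Mir15b and Mir16-2, at 7 to 56 counts, and the epithelial, endothelial and leukocyte markers.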
